A study of Mus musculus with 22 samples.

Results

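The genes described here are 34 mouse genes of glycolysis and of the response to low oxygen, a list put together by function: 2 glucose transporters, 15 glycolytic enzymes, 3 genes of lactate and pyruvate handling, 2 regulators of glycolytic flux, 2 hypoxia-inducible factor (HIF) alpha subunits and 10 genes known to be switched on by HIF. They are 34 of the 48440 genes counted, and all 34 passed the filter on low counts that left 18929 genes for testing. Their RNA levels come from 22 mouse tumours that had been fresh frozen. The combined tumours (8 libraries) are labelled SS18-SSX+/- and Snf5-/- and carried both the fusion gene of synovial sarcoma and a loss of Smarcb1 (also called Snf5), a core subunit of the SWI/SNF chromatin remodelling complex that the fusion protein joins. The Snf5-null tumours (8 libraries) are labelled SNF5-/- and carried the loss alone, and the SS18-SSX tumours (6 libraries) are labelled SS18-SSX+/- and carried the fusion alone, named SSM2 in their titles.

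Titles also name the source of Cre recombinase, which divides the libraries into 6 groups. Myf5Cre, in which Cre is expressed from the Myf5 gene of muscle progenitor cells, marked 4 combined, 3 Snf5-null and 3 SS18-SSX libraries. TATCre, a Cre protein that enters cells from outside, marked 4 combined and 5 Snf5-null libraries, and the other 3 SS18-SSX libraries have no Cre stated. Ages are not stated, and the strain label reads C57BL/6 for the first library and ends in another number in each of the others, so it was not used. Libraries are named below by the tag in their title. The labels do not say that the libraries came from separate animals, so a p-value measures only the spread between these samples, which may be technical, and the Snf5-null TATCre libraries N43L and N43R may be a pair from 1 animal. The Snf5-null Myf5Cre libraries N31 and N33 were the most alike of their group, and their source is not stated either, so the 3 libraries of that group may stand for fewer animals. In chi-square per gene between their counts, a measure that rises with depth, combined Myf5Cre N3 and N4 were closer still (39.5, against 63.3 for N31 and N33). By correlation of log2 CPM the order was the other way (0.984 for N3 and N4, 0.987 for N31 and N33). The 4 combined Myf5Cre libraries may thus also stand for fewer animals, and N3 and N4 were not summed in any alternative. The number series in the library descriptions was the same for every combined and Snf5-null library and differed in both SS18-SSX groups, so this series and that genotype cannot be told apart.

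Glycolysis splits glucose into pyruvate in the cytosol, and lactate dehydrogenase turns pyruvate into lactate when the mitochondria do not take it up. HIF alpha subunits are degraded when oxygen is plentiful and accumulate when it is scarce, and HIF then binds short sites near its target genes, among them most of the glycolytic enzymes. In solid tumours these genes serve as markers of poorly perfused tissue, and they are also raised by oncogenic signalling where oxygen is plentiful.

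Total counts were 14834030 to 18062578 per library in combined tumours, 16059420 to 21807838 in Snf5-null tumours and 8642648 to 25177722 in SS18-SSX tumours. Smarcb1 averaged 2.53 ± 0.946 CPM (counts scaled to a common library size) in combined tumours and 15.9 ± 5.17 in Snf5-null tumours, against 79.2 ± 23.1 in SS18-SSX tumours (SD, n = 8, 8 and 6). Tle1, a marker of synovial sarcoma, averaged 188 ± 22.7 CPM in combined tumours, 39.1 ± 7.76 in Snf5-null tumours and 287 ± 72.1 in SS18-SSX tumours. The summed level of 8 macrophage markers had a median of 279 CPM in combined tumours (range 74.5 to 772), 4150 in Snf5-null tumours (range 1704 to 6753) and 267 in SS18-SSX tumours (range 82.1 to 538). The summed level of 11 markers of mature skeletal muscle had a median of 469 CPM in combined tumours (range 335 to 4445), 6761 in Snf5-null tumours (range 720 to 27766) and 500 in SS18-SSX tumours (range 12.4 to 15396). It exceeded 5000 CPM in 6 libraries, namely N30, N49, N43L and N43R of the Snf5-null tumours and N381 and A of the SS18-SSX tumours. In whole tumours, fewer cells of a type and less RNA per cell cannot be told apart.

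HIF binds a core of 5 letters, ACGTG or GCGTG. Both were searched on both strands of the promoter windows of RefSeq (assembly GRCm38.p6), which run from 250 bases before to 50 after a gene's start and hold 300 bases. Windows were given for 31 of the 34 members, and Ndrg1, Slc2a3 and Epas1 had none. A window was taken to hold a match whatever its strand, and the palindrome CACGTG counted as 2 overlapping matches. Of the 31 members, 24 (77.4%) held at least 1 match, against 11848 of 27025 genes (43.8%) with a window of the same length. At least 2 matches were found in 19 members (61.3%), against 5626 of all genes (20.8%). ACGTG alone was found in 18 members (58.1%), against 5305 of all genes (19.6%). Among the hypoxia targets 8 of 9 windows held a match, and among the glycolytic members 15 of 21 did. A match is a string of letters and not a measured binding site.

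The first 5 windows below belong to some, not all, of the members that were higher in combined tumours than in both other genotypes. They span a glycolytic enzyme, the last step to lactate, lactate export and a pair of hypoxia targets. Capitals mark ACGTG or GCGTG on the printed strand, or CACGT or CACGC, which are the same letters on the other strand. Pgk1 lies at chrX:106186850-106187149 on the plus strand, Ldha at chr7:46845554-46845853 on the plus strand, Slc16a3 at chr11:120948817-120949116 on the plus strand, Ankrd37 at chr8:45999801-46000100 on the minus strand and Bnip3 at chr7:138909457-138909756 on the minus strand, all in GRCm38.p6.
Pgk1: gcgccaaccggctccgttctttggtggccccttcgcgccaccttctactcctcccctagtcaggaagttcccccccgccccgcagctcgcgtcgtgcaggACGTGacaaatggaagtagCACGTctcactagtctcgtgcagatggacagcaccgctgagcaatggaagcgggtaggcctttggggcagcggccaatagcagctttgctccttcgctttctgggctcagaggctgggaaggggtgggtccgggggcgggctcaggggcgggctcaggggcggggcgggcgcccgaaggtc
Ldha: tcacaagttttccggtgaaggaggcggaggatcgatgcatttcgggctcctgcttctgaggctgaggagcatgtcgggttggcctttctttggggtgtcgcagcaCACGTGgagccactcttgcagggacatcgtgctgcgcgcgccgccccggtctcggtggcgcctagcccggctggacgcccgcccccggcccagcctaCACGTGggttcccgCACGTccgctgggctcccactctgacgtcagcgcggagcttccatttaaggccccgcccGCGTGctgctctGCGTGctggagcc
Slc16a3: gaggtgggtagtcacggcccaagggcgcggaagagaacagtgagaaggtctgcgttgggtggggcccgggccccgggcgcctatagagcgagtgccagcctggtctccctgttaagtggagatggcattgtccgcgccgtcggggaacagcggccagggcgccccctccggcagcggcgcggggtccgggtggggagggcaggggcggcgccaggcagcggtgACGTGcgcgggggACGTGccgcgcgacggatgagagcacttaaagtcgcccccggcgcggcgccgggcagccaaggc
Ankrd37: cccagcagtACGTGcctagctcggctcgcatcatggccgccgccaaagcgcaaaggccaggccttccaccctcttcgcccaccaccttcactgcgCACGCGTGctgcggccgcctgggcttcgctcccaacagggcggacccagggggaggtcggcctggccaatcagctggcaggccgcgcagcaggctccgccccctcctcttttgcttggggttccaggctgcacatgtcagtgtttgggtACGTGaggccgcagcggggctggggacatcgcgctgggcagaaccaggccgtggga
Bnip3: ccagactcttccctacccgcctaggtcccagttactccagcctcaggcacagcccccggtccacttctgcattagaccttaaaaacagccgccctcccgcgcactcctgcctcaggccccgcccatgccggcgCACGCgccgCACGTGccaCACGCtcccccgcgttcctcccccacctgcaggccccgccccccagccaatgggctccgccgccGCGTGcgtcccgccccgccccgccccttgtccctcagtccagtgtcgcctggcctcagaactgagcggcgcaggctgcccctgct

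The Ldha window held 7 matches, the Bnip3 window 5, the Ankrd37 window 4, and the Pgk1 and Slc16a3 windows 2 each. The other members higher in both comparisons, whose windows are not printed, mostly held fewer. Pfkl and Egln3 held 1 match each, Pdk1 and Adm 2 each, and Pgam1 and Hif1a 3 each. Pfkl, Pdk1 and Adm held no ACGTG on either strand, so the printed windows are not typical of members that rose. The other pair of windows belongs to the members that edgeR called lower in combined tumours than in Snf5-null tumours, Hk2 at chr6:82774405-82774704 on the minus strand and Pfkfb4 at chr9:108991652-108991951 on the plus strand. These held 2 matches and 1 match, so matches were present in members that moved in both directions.
Hk2: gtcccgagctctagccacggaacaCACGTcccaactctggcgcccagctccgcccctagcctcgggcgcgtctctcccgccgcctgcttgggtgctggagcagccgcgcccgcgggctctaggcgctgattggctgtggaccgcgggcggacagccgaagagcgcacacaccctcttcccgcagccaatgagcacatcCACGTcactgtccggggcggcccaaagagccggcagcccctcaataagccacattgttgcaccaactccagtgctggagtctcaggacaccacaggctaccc
Pfkfb4: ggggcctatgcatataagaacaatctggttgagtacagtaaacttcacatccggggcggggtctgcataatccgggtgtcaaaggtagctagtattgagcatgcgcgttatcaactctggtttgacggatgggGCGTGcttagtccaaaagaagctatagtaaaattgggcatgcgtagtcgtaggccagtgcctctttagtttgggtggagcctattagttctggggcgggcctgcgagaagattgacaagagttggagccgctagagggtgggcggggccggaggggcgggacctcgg

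More members rose than fell in combined tumours against either other genotype. Against Snf5-null tumours 15 members rose and 2 fell in combined tumours (44.1% and 5.88% of members), where 49.6% of all tested genes were called, 29.1% higher and 20.5% lower. Against SS18-SSX tumours 18 members rose and 2 fell in combined tumours (52.9% and 5.88%), where 45.0% of all tested genes were called, 23.1% higher and 21.9% lower. In Snf5-null against SS18-SSX tumours 14 members rose and 4 fell (41.2% and 11.8%), where 48.2% of all tested genes were called, 22.3% higher and 25.9% lower. A gene was called at a Benjamini-Hochberg adjusted p below 0.05 over all 18929 genes in edgeR's quasi-likelihood test, and every adjusted p given below for 1 gene is from this fit unless another test is named. The median log2 fold change of the members was 0.38, 1.07 and 0.44 in these comparisons, in the order given, beside 0.24, -0.09 and -0.06 over all tested genes. With the 6 libraries high in muscle markers left out, 9 members rose and 1 fell in combined against Snf5-null tumours, 16 rose and 0 fell in combined against SS18-SSX tumours, and 13 rose and 2 fell in Snf5-null against SS18-SSX tumours, where 28.1%, 30.9% and 36.4% of all genes tested in that fit were called. In the first of these, the share of members called in either direction was near that of all genes. The calls lost in the first were Hk2 (log2 fold change -1.06), Tpi1 (0.60), Gapdh (1.35), Pgam1 (0.80), Ldha (0.33), Hif1a (0.56), Egln3 (1.73) and Bnip3 (1.44). Those lost in the second were Eno2 (-0.52), Pfkfb3 (1.25), Hif1a (0.34), Epas1 (-1.22) and Egln3 (2.08), and in the last Aldoc (-0.58), Eno2 (-0.53), Epas1 (-1.03) and Bnip3 (1.29), while Pfkm was gained in the first and last and Aldoc in the second. In combined against Snf5-null tumours, 11 members rose and 1 fell with Myf5Cre libraries alone, where 32.7% of all genes tested in that fit were called, and 2 rose and 3 fell with TATCre libraries alone, where 21.4% were called. The rises kept there were Pfkl and Aldoc, and the other 13 had log2 fold changes of 0.27 to 2.34 with adjusted p of 0.0504 to 0.439. The comparisons share libraries, so their counts are not independent of each other.

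Complete separation was rare between combined and Snf5-null tumours, as it was over all genes, and more frequent against SS18-SSX tumours. Pfkl was the single member whose every combined library lay above every Snf5-null library (2.97% of all tested genes did), and Pfkfb4 the single member whose every combined library lay below (6.36% of all tested genes did). In combined against SS18-SSX tumours 8 members lay wholly above (4.10% of all tested genes did), namely Pgk1, Pgam1, Eno1, Ldha, Slc16a3, P4ha1, Ankrd37 and Ddit4, and 0 wholly below (4.27%). In Snf5-null against SS18-SSX tumours 10 members lay wholly above (8.27% of all tested genes did), namely Slc2a1, Pfkfb3, Pfkfb4, Pgk1, Pgam1, Eno1, Ldha, Slc16a3, P4ha1 and Ddit4, and 0 wholly below (10.1%).

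**Figure D1:**
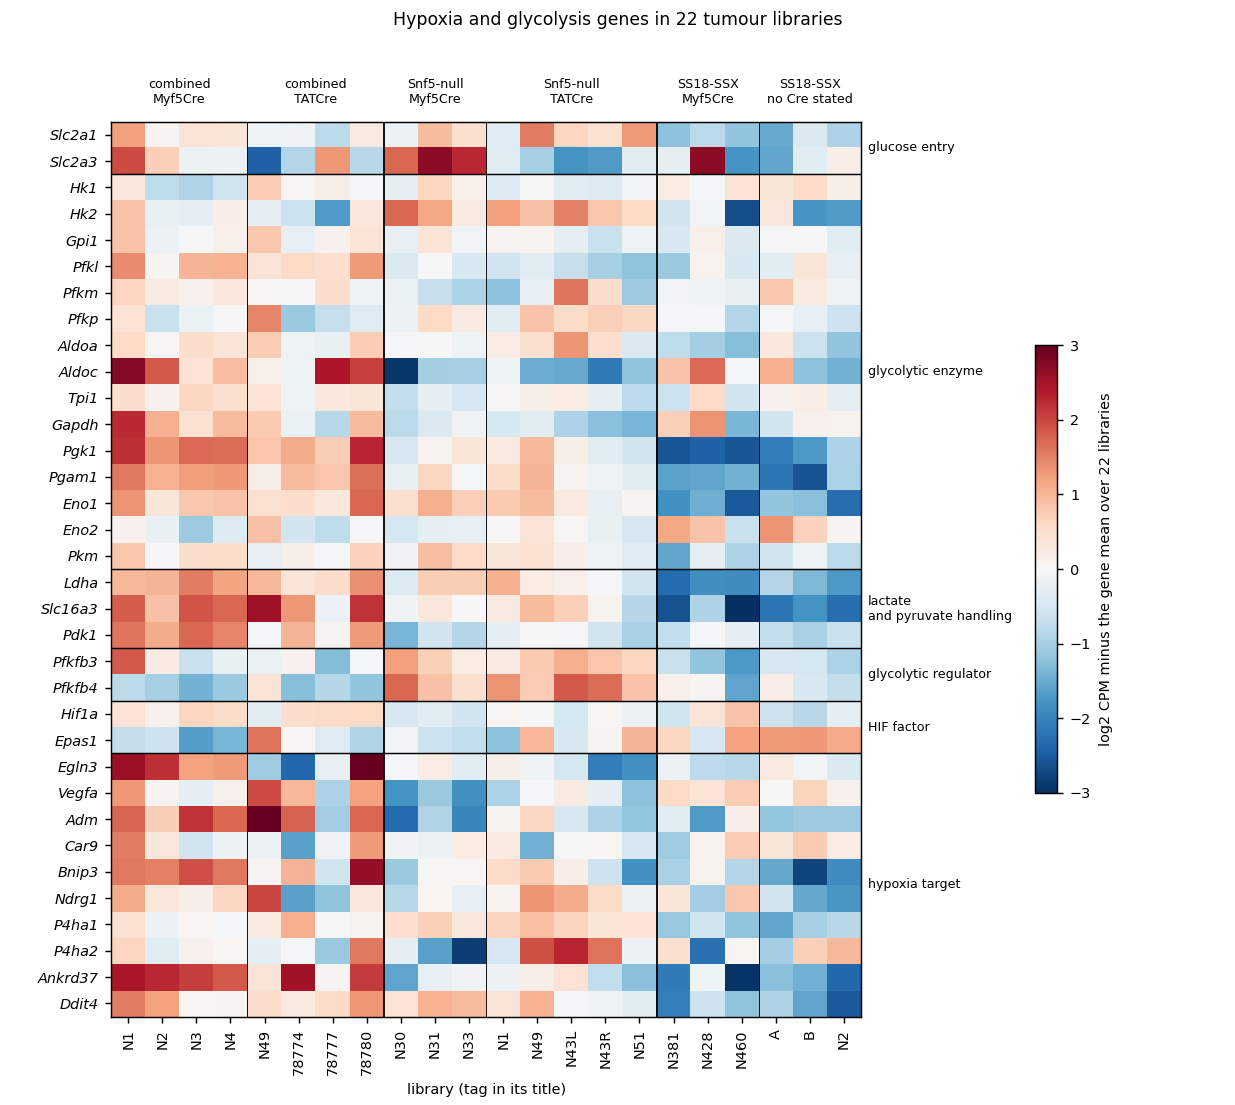
The 34 members (vertical axis, by role) in the 22 libraries (horizontal axis, by group, combined at the left and SS18-SSX at the right). Colour gives log2 CPM minus the mean of that gene over the 22 libraries, from -3 to 3; the lactate and pyruvate genes are above their mean in most combined libraries and below it in SS18-SSX libraries, while Pdk1 is near or below its mean in both single genotypes.

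At the end of the pathway, all 3 genes of lactate and pyruvate handling rose in combined tumours against both other genotypes. Against Snf5-null tumours none of the 3 passed with TATCre libraries alone, where Ldha was 0.55 (adjusted p = 0.269), Slc16a3 1.37 (adjusted p = 0.0887) and Pdk1 0.98 higher on the log2 scale (adjusted p = 0.0609). Ldha encodes the lactate dehydrogenase subunit that favours conversion of pyruvate to lactate. Its lowest, median and highest values were 683, 1039 and 1534 CPM in combined tumours, 351, 594 and 1081 in Snf5-null tumours and 104, 151 and 282 in SS18-SSX tumours. Combined and Snf5-null libraries all lay above the SS18-SSX libraries but overlapped each other. The log2 fold change was 2.67 ± 0.28 in combined against SS18-SSX tumours (adjusted p = 5.32e-06), 1.99 ± 0.27 in Snf5-null against SS18-SSX tumours (adjusted p = 1.79e-05) and 0.68 ± 0.24 in combined against Snf5-null tumours (SE, adjusted p = 0.0265). The last of these was called in the fit of all libraries but not without Snf5-null Myf5Cre N30, where it was 0.39 (adjusted p = 0.22), nor without Snf5-null Myf5Cre N31 or N33, combined Myf5Cre N1, N3 or N4, or any 1 of the 6 SS18-SSX libraries (0.54 to 0.62). The SS18-SSX libraries are in neither group of this comparison and enter it only through the shared filter, scaling and model. With DESeq2, which scales libraries in another way, the Ldha difference was 0.58 (adjusted p = 0.0315).

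Slc16a3 encodes MCT4, the transporter that exports lactate from cells. It had a lowest, median and highest value of 42.2, 163 and 282 CPM in combined tumours, 26.6, 54.5 and 92.6 in Snf5-null tumours and 3.49, 10.2 and 25.1 in SS18-SSX tumours. Only 78777 and Myf5Cre N2 of the combined libraries fell within the Snf5-null range, and no SS18-SSX library reached either of the others. It showed the largest log2 fold change of any member in combined against SS18-SSX tumours, 3.73 ± 0.47 (adjusted p = 2.25e-05), and was 1.49 ± 0.39 higher in combined tumours than in Snf5-null tumours (adjusted p = 0.00465) and 2.24 ± 0.44 higher in Snf5-null than in SS18-SSX tumours (adjusted p = 0.000438). SS18-SSX library N428 was the highest of its genotype, and without it the differences from SS18-SSX tumours were 4.32 for combined and 2.96 for Snf5-null tumours.

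Pdk1 encodes a kinase that inhibits pyruvate dehydrogenase and so holds pyruvate back from the mitochondria. It had a lowest, median and highest value of 103, 246 and 356 CPM in combined tumours, 40.8, 71.7 and 107 in Snf5-null tumours and 55.0, 66.4 and 105 in SS18-SSX tumours. Of the combined libraries only TATCre N49 lay within the range of the others. The log2 fold change was 1.72 ± 0.22 in combined against Snf5-null tumours (adjusted p = 5.86e-06) and 1.64 ± 0.23 in combined against SS18-SSX tumours (adjusted p = 5.16e-05). In Snf5-null against SS18-SSX tumours it was -0.07 ± 0.22 (adjusted p = 0.806). The difference between Myf5Cre and TATCre libraries was 1.37 ± 0.42 larger in combined than in Snf5-null tumours, which edgeR did not call (adjusted p = 0.0851) and DESeq2 did (1.39, adjusted p = 0.0227). Unlike Ldha and Slc16a3, which also differed between the single genotypes, Pdk1 passed the test only where combined tumours were compared, and the difference between those patterns was not tested.

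**Figure D2:**
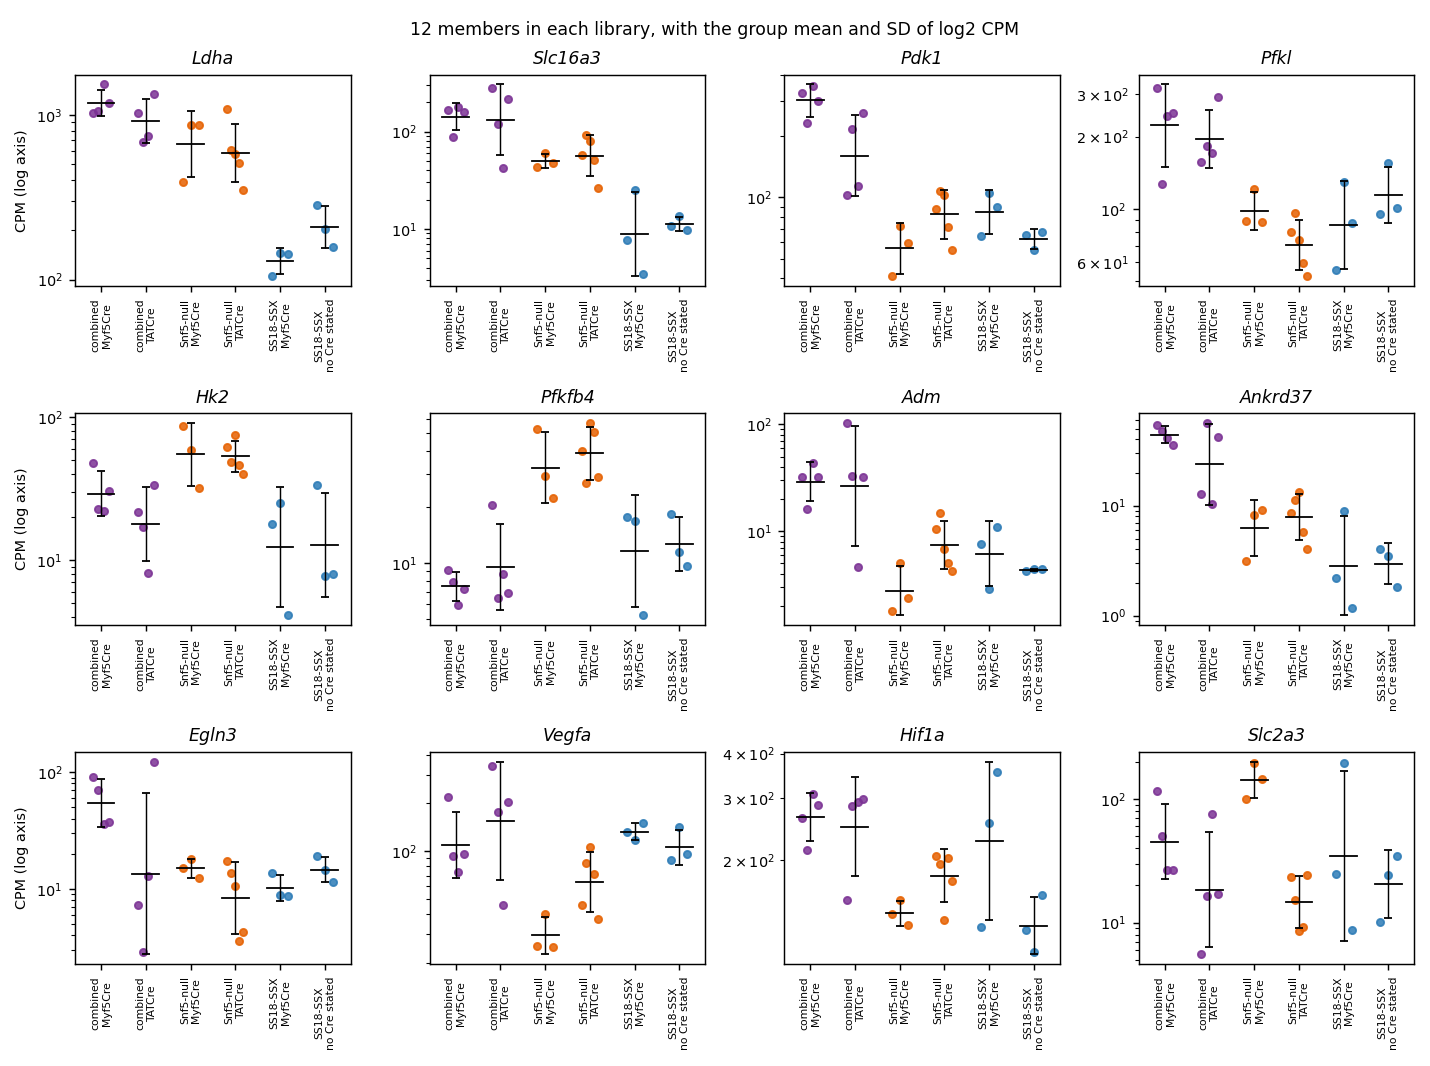
CPM (vertical axes, log scale) of 12 members in each library of the 6 groups (horizontal axes), combined in purple, Snf5-null in orange and SS18-SSX in blue; points are libraries, bars the group mean of log2 CPM and whiskers its SD. Ldha and Slc16a3 fall in steps across the 3 genotypes, Pfkfb4 is high in Snf5-null tumours alone, and Egln3 splits the combined TATCre libraries from 2.90 to 123 CPM.

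Among the 15 glycolytic enzymes 6 rose and 1 fell in combined against Snf5-null tumours, 6 rose and 1 fell in combined against SS18-SSX tumours, and 6 rose and 2 fell in Snf5-null against SS18-SSX tumours. Their median log2 fold changes were 0.35, 0.63 and 0.11. Over all tested genes 29.1%, 23.1% and 22.3% were higher and 20.5%, 21.9% and 25.9% lower in the same order. The enzymes that moved were not the same in each comparison, and for most steps with several isoenzymes the isoenzymes moved differently.

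Hexokinase phosphorylates glucose on entry, and the tumours used its isoenzymes in different proportions. Hk2, the inducible form, had a lowest, median and highest value of 8.12, 22.4 and 47.9 CPM in combined tumours, 32.1, 54.1 and 87.3 in Snf5-null tumours and 4.11, 13.1 and 33.3 in SS18-SSX tumours. All genotypes overlapped, though Snf5-null tumours overlapped SS18-SSX tumours only through SS18-SSX library A and Snf5-null library N33. Hk2 fell in combined against Snf5-null tumours (-1.20 ± 0.39, adjusted p = 0.0167) and rose in Snf5-null against SS18-SSX tumours (1.83 ± 0.44, adjusted p = 0.00228), where it was 2.50 without library A. The fall in combined tumours was -1.06 with adjusted p = 0.0908 without the libraries high in muscle markers. Hk1, the widely expressed form, passed in none of these comparisons. The share of Hk2 in the length-adjusted counts of Hk1 and Hk2 was 23.9% ± 10.2 in combined tumours, 40.0% ± 11.0 in Snf5-null tumours and 12.8% ± 8.61 in SS18-SSX tumours (SD, n = 8, 8 and 6). The log2 ratio of Hk2 to Hk1 was lower by 1.21 in combined tumours than in Snf5-null tumours (adjusted p = 0.0311, two-sided exact permutation test over libraries, adjusted over the 27 tests of 9 isoenzyme ratios) and higher by 2.48 in Snf5-null than in SS18-SSX tumours (adjusted p = 0.0042, exact), with no overlap in the second comparison. No isoenzyme ratio, here or below, passed without the libraries high in muscle markers or with either Cre label alone. With Myf5Cre libraries alone, groups of 4, 3 and 3 allow no exact p below 0.05, so none could pass whatever the values. Smaller groups limit the smallest p in the other settings too, so these outcomes do not show whether the ratios hold there.

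Phosphofructokinase catalyses the committed step. Pfkl, its liver-type subunit, had a lowest, median and highest value of 127, 213 and 320 CPM in combined tumours, 52.5, 84.3 and 122 in Snf5-null tumours and 55.7, 98.1 and 155 in SS18-SSX tumours. No combined library overlapped the Snf5-null tumours, and only Myf5Cre N2 fell within the SS18-SSX range. Pfkl rose in combined tumours against both, by 1.35 ± 0.22 (adjusted p = 9.54e-05) against Snf5-null and 1.08 ± 0.24 (adjusted p = 0.00147) against SS18-SSX tumours. It is 1 of 3 members, with Aldoc and Pfkfb4, whose call in combined against Snf5-null tumours held under every alternative run. Pfkm, the muscle subunit, ranged from 120 to 209 CPM in combined tumours, 57.3 to 408 in Snf5-null tumours and 115 to 233 in SS18-SSX tumours, and its top values in the single genotypes came from N43L and A, both high in muscle markers. Pfkm passed in neither comparison of combined tumours with all libraries in the fit, and without the 6 libraries high in muscle markers it was 1.11 higher in combined tumours than in Snf5-null tumours (adjusted p = 0.000431). Pfkp, the platelet subunit, passed in no genotype comparison. The ratio of Pfkp to Pfkl was 1.91 log2 units lower in combined tumours than in Snf5-null tumours (adjusted p = 0.0042, exact permutation test), and that of Pfkm to Pfkl 0.95 lower in combined than in SS18-SSX tumours (adjusted p = 0.0292, exact).

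Aldolase splits the 6-carbon sugar. Aldoa, the main form, had a lowest, median and highest value of 662, 1064 and 1316 CPM in combined tumours, 569, 835 and 1928 in Snf5-null tumours and 321, 421 and 970 in SS18-SSX tumours. All genotypes overlapped. It rose by 1.06 ± 0.28 (adjusted p = 0.00508) in combined and by 0.91 ± 0.28 (adjusted p = 0.012) in Snf5-null against SS18-SSX tumours, and the difference between combined and Snf5-null tumours was 0.15 (adjusted p = 0.645). Aldoc, the form best known from brain, had a lowest, median and highest value of 15.1, 46.6 and 115 CPM in combined tumours, 2.15, 6.68 and 15.5 in Snf5-null tumours and 6.24, 23.4 and 54.6 in SS18-SSX tumours. Only combined library 78774 lay below the top Snf5-null library. Aldoc was 2.93 ± 0.55 higher in combined tumours than in Snf5-null tumours (adjusted p = 0.000346) and fell in Snf5-null against SS18-SSX tumours (-1.75 ± 0.55, adjusted p = 0.0137). The fall was not called without library A (-0.97, adjusted p = 0.128), N428 (-1.32, adjusted p = 0.0619) or Snf5-null Myf5Cre N30 (-1.39, adjusted p = 0.0558). Aldoc made up 4.71% ± 3.48 of the length-adjusted aldolase counts in combined tumours, 0.750% ± 0.483 in Snf5-null tumours and 4.53% ± 3.67 in SS18-SSX tumours.

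Enolase makes phosphoenolpyruvate, and its isoenzymes gave the largest shift among the 9 isoenzyme ratios. Eno1, the ubiquitous form, had a lowest, median and highest value of 104, 132 and 274 CPM in combined tumours, 70.1, 126 and 175 in Snf5-null tumours and 14.3, 26.7 and 36.5 in SS18-SSX tumours. SS18-SSX libraries lay below all others. The log2 fold change was 2.57 ± 0.29 in combined (adjusted p = 1.15e-05) and 2.30 ± 0.29 in Snf5-null against SS18-SSX tumours (adjusted p = 8.72e-06). Eno2, the neuron-type form, ranged from 16.5 to 65.2 CPM in combined tumours, 24.3 to 46.3 in Snf5-null tumours and 22.0 to 90.4 in SS18-SSX tumours, with overlap throughout. It fell in combined (-0.87 ± 0.30, adjusted p = 0.024) and in Snf5-null tumours (-0.91 ± 0.31, adjusted p = 0.0192) against SS18-SSX tumours. Both calls were lost without SS18-SSX library N381, N428 or A (-0.57 to -0.77), and the second also without SS18-SSX B, any 1 of the 3 Snf5-null Myf5Cre libraries or combined Myf5Cre N4. Per unit of length Eno2 made up 19.9% ± 8.88 of the enolase counts in combined tumours, 23.5% ± 5.46 in Snf5-null tumours and 70.8% ± 5.72 in SS18-SSX tumours. The log2 ratio of Eno2 to Eno1 was 3.40 lower in combined and 3.03 lower in Snf5-null than in SS18-SSX tumours (adjusted p = 0.0042 for each, exact permutation test), with no overlap. Eno1 shares 26% of its sequence stretches with other genes, as described below. Its copies held up to 31% of the summed counts in SS18-SSX libraries, 11.3% in combined and 6.66% in Snf5-null libraries. The share and ratio of Eno2 were not recomputed with these copies added, so their size is uncertain.

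Of the remaining enzymes, Tpi1 (triose phosphate isomerase), Gapdh (glyceraldehyde 3-phosphate dehydrogenase), Pgk1 (phosphoglycerate kinase, which makes ATP) and Pgam1 (phosphoglycerate mutase) rose in combined against Snf5-null tumours, by 0.64 ± 0.20 (adjusted p = 0.0121), 1.49 ± 0.37 (adjusted p = 0.00341), 1.46 ± 0.28 (adjusted p = 0.000368) and 0.92 ± 0.29 (adjusted p = 0.0133) in that order. Pgk1 had a lowest, median and highest value of 25.2, 42.9 and 74.1 CPM in combined tumours, 9.86, 16.5 and 29.7 in Snf5-null tumours and 2.43, 3.10 and 7.82 in SS18-SSX tumours. Only the combined libraries 78777 and TATCre N49 reached into the Snf5-null range, and the SS18-SSX libraries lay apart from both. Pgk1 was 3.62 ± 0.33 higher in combined than in SS18-SSX tumours (adjusted p = 1.9e-06), a 12.3-fold difference. Pgam1 was 2.84 ± 0.34 higher in the same comparison (adjusted p = 1.45e-05). Pkm, pyruvate kinase, was 0.99 ± 0.24 higher in combined (adjusted p = 0.00339) and 0.97 ± 0.25 higher in Snf5-null than in SS18-SSX tumours (adjusted p = 0.00335), and 0.01 (adjusted p = 0.968) in combined against Snf5-null tumours. Gpi1, glucose phosphate isomerase, passed in no genotype comparison. The calls of Tpi1 and Pgam1 in combined against Snf5-null tumours were lost without Snf5-null Myf5Cre N30 or N33 or combined Myf5Cre N1, with Tpi1 at 0.44 to 0.49 and Pgam1 at 0.70 to 0.73, and Tpi1 also without N31, combined Myf5Cre N4 or SS18-SSX A, B or N2. Those SS18-SSX libraries are in neither group of this comparison and enter it only through the shared filter, scaling and model.

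**Figure D3:**
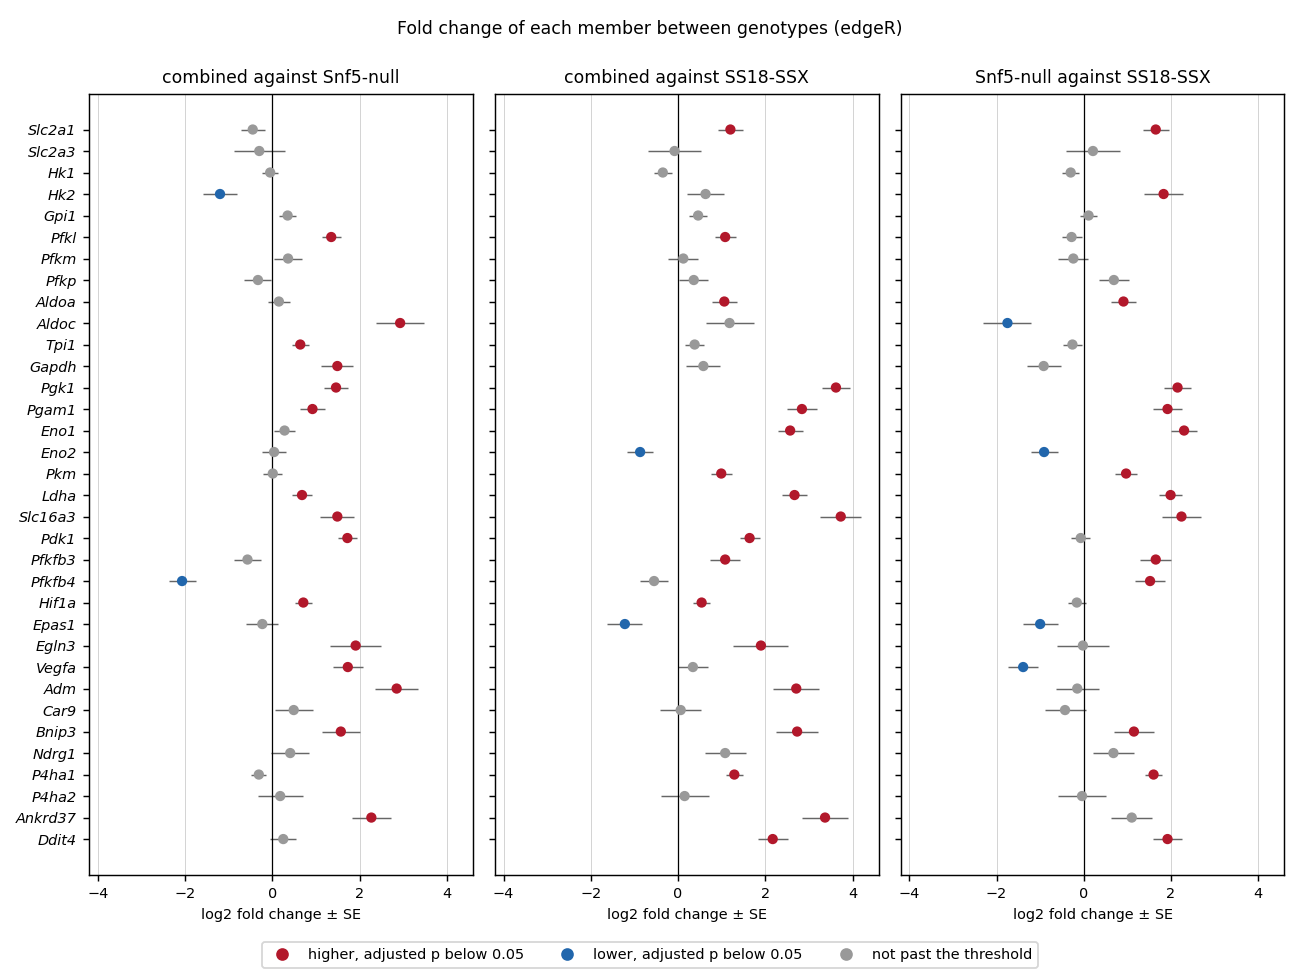
Log2 fold change with its SE (horizontal axes) of each of the 34 members (vertical axis) in combined against Snf5-null, combined against SS18-SSX and Snf5-null against SS18-SSX tumours. Red and blue mark members higher and lower at an adjusted p below 0.05; Slc16a3 at 3.73 and Pgk1 at 3.62 stand farthest right, in combined against SS18-SSX tumours.

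Several of these enzymes have pseudogenes with near-identical sequence, and the sources used here do not say how reads matching several of them were counted. The share of a member's 50-base stretches that also occur in transcripts of another gene was 53.9% for Pgk1, 36.2% for Pgam1, 26% for Eno1, 25.8% for Pkm and 24.7% for Gapdh. It was 16.5% for Bnip3, 9.03% for Ldha, 8.83% for Pfkm, 8.23% for Gpi1 and 6.43% for Aldoa, and below 5% for the other 24 members, so the levels of the first 10 are uncertain. Levels per length were uneven along the pathway. Mean CPM per kb of exon in combined tumours was 346 for Aldoa, 324 for Ldha, 186 for Pkm and 181 for Tpi1, but 28.5 for Eno1, 20.2 for Pgk1, 7.13 for Pgam1 and 4.08 for Gapdh. Gapdh, one of the most abundant enzymes in most tissues, was thus the lowest of these 8 in combined tumours. Its copies, the 84 other genes with at least 10% of their own stretches in Gapdh, held 49.4% to 84.2% of the summed counts of Gapdh and its copies in combined libraries, 68.2% to 90.4% in Snf5-null libraries and 31.4% to 89% in SS18-SSX libraries. With these copies added, Gapdh was 0.74 higher in combined tumours than in Snf5-null tumours and no longer passed (adjusted p = 0.136). Copies of Eno1 held up to 11.3% in combined libraries, 6.66% in Snf5-null libraries and 31% in SS18-SSX libraries.

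The 24 members below 5% were therefore counted alone. Of these, 10 rose and 2 fell in combined against Snf5-null tumours (median log2 fold change 0.33), 11 rose and 2 fell in combined against SS18-SSX tumours (median 0.86), and 7 rose and 4 fell in Snf5-null against SS18-SSX tumours (median -0.03). Of the 10 members at or above 5%, 5, 7 and 7 rose and 0 fell in the same comparisons, with medians of 0.52, 1.81 and 1.06. Over all tested genes 29.1%, 23.1% and 22.3% were higher and 20.5%, 21.9% and 25.9% lower in these comparisons. Over all protein-coding genes the median fold change in combined against SS18-SSX tumours was -0.09 for the 8639 genes with no shared stretch, -0.04 for the 4817 genes with shares up to 5%, and 0.31, 0.47 and 0.40 for genes with shared stretches above 5 to 20%, above 20 to 50% and above 50%. For Snf5-null against SS18-SSX tumours it was 0 for genes with no shared stretch, -0.02 up to 5%, and 0.28, 0.23 and 0.25 in the same classes, and for combined against Snf5-null tumours 0.15, 0.18, 0.33, 0.51 and 0.39 in this order. Genes with more than 5% of shared stretches thus had higher median fold changes in all 3 comparisons, and the part of this in the values of Pgk1, Pgam1, Eno1 and Ldha was not tested. Slc16a3 shared no stretch with any other gene.

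**Figure D4:**
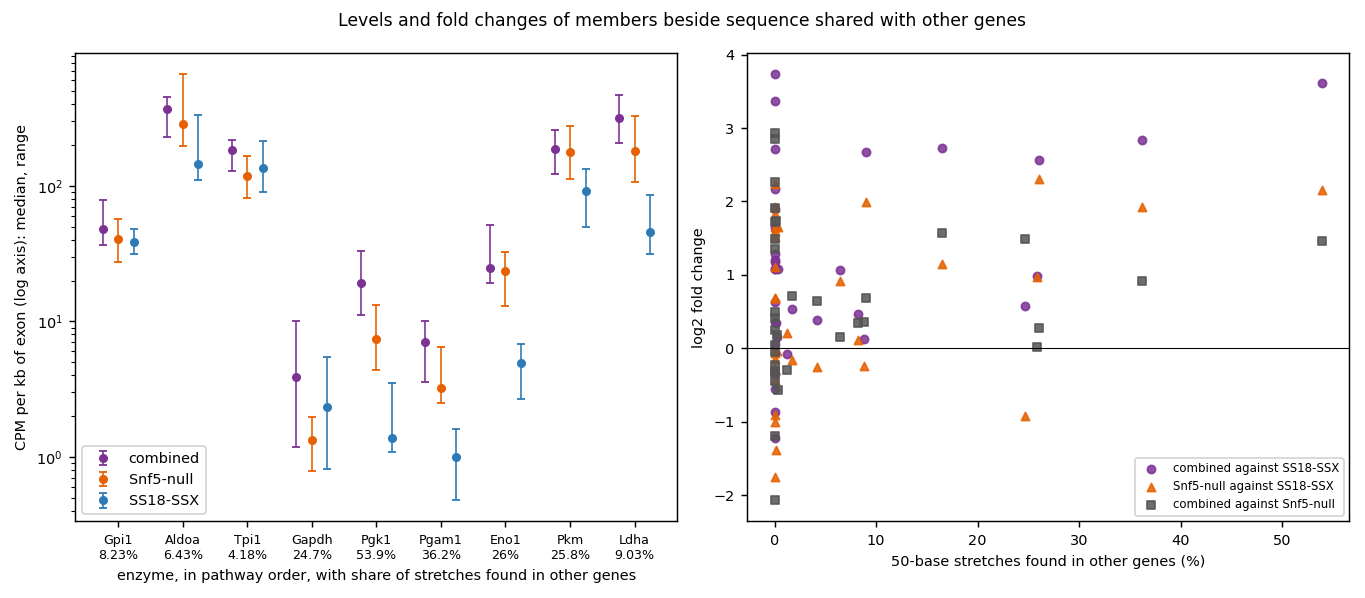
Left, CPM per kb of exon (vertical axis, log scale; points are medians, whiskers the range over libraries) of 9 enzymes in pathway order, for combined (purple), Snf5-null (orange) and SS18-SSX tumours (blue), with the share of stretches found in other genes under each name. Right, log2 fold change (vertical axis) of each member against that share (horizontal axis) in the 3 comparisons; Pgk1, Pgam1, Eno1 and Pkm, with the largest shares, have no negative fold change, Gapdh at 24.7% has one of -0.92, and members with a share near 0 fall on both sides of 0.

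Pfkfb4, a regulator of glycolytic flux, was higher in Snf5-null tumours than in both other genotypes, while neither glucose transporter differed between combined and Snf5-null tumours past the threshold. Slc2a1, the glucose transporter GLUT1, had a lowest, median and highest value of 28.5, 55.9 and 116 CPM in combined tumours, 37.9, 72.5 and 143 in Snf5-null tumours and 17.1, 23.7 and 36.6 in SS18-SSX tumours. Every Snf5-null library lay above every SS18-SSX library, and 1 combined library, 78777, overlapped the SS18-SSX range. It rose by 1.20 ± 0.29 (adjusted p = 0.00304) in combined and by 1.65 ± 0.30 (adjusted p = 0.000227) in Snf5-null against SS18-SSX tumours, and was -0.45 ± 0.27 (adjusted p = 0.167) in combined against Snf5-null tumours. Slc2a3, another glucose transporter, had a lowest, median and highest value of 5.57, 26.8 and 117 CPM in combined tumours, 8.65, 23.8 and 196 in Snf5-null tumours and 8.70, 24.5 and 195 in SS18-SSX tumours. All genotypes overlapped almost fully, and its log2 fold changes were -0.30 (adjusted p = 0.687) in combined against Snf5-null, -0.08 (adjusted p = 0.921) in combined against SS18-SSX and 0.21 (adjusted p = 0.795) in Snf5-null against SS18-SSX tumours. Pfkfb3 and Pfkfb4 make fructose 2,6-bisphosphate, the activator of phosphofructokinase. Pfkfb4 had a lowest, median and highest value of 5.90, 7.58 and 20.6 CPM in combined tumours, 22.4, 34.8 and 56.8 in Snf5-null tumours and 5.21, 14.1 and 18.3 in SS18-SSX tumours. Snf5-null libraries lay above all others. Pfkfb4 fell in combined against Snf5-null tumours by 2.07 ± 0.31 on the log2 scale (adjusted p = 4.16e-05), a call that held under every alternative run. It rose by 1.52 ± 0.34 in Snf5-null against SS18-SSX tumours (adjusted p = 0.00128).

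Pfkfb3 had a lowest, median and highest value of 11.9, 26.9 and 106 CPM in combined tumours, 34.1, 49.2 and 68.7 in Snf5-null tumours and 8.85, 16.8 and 21.2 in SS18-SSX tumours. The value of 106 was combined Myf5Cre N1, above every other library, and Snf5-null libraries lay above all SS18-SSX libraries. It rose in combined (1.08 ± 0.34, adjusted p = 0.0156) and in Snf5-null tumours (1.65 ± 0.35, adjusted p = 0.000897) against SS18-SSX tumours. In combined against Snf5-null tumours it was -0.57 ± 0.31 (adjusted p = 0.136). The log2 ratio of Pfkfb4 to Pfkfb3 was 1.37 lower in combined tumours than in Snf5-null tumours (adjusted p = 0.0144) and 1.42 lower in combined than in SS18-SSX tumours (adjusted p = 0.03, both exact permutation tests). All 8 macrophage markers fell in combined against Snf5-null tumours and rose in Snf5-null against SS18-SSX tumours, as Pfkfb4 and Hk2 did. Of all tested genes 20.5% fell in the first and 22.3% rose in the second. All 6 T and NK cell markers also fell in the first, and 3 rose and 0 fell in the second. Of 11 muscle markers 7 fell and 0 rose in the first, and 0 rose and 0 fell in the second. All 5 red blood cell markers rose in the first. None of the 8 macrophage markers was at 0 in any genotype, and their summed levels are given above. The part of these cell types in these values was not tested.

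The HIF alpha subunits moved in opposite directions in combined against SS18-SSX tumours. Hif1a had a lowest, median and highest value of 154, 286 and 307 CPM in combined tumours, 131, 164 and 205 in Snf5-null tumours and 110, 144 and 354 in SS18-SSX tumours. Apart from TATCre N49 at 154, the combined libraries (214 or more) lay above every Snf5-null library, while SS18-SSX libraries N428 and N460 lay above every Snf5-null library too. Hif1a was 0.71 ± 0.19 higher in combined tumours than in Snf5-null tumours (adjusted p = 0.0053), and 0.53 (adjusted p = 0.0556) without Snf5-null Myf5Cre N33. It was 0.54 ± 0.20 higher in combined than in SS18-SSX tumours (adjusted p = 0.0359), and this call did not hold with Myf5Cre libraries alone (-0.01, adjusted p = 0.979) or without any 1 of SS18-SSX N381, N428, A and B, combined TATCre 78774 and 78777 and combined Myf5Cre N3 and N4 (0.37 to 0.55). Epas1, which encodes HIF2 alpha and is known from endothelial cells among others, had a lowest, median and highest value of 9.39, 18.8 and 92.3 CPM in combined tumours, 12.7, 25.0 and 60.7 in Snf5-null tumours and 21.1, 67.5 and 73.8 in SS18-SSX tumours. The 92.3 was combined TATCre N49, the library with the lowest Hif1a of its genotype. Epas1 fell in combined (-1.22 ± 0.40, adjusted p = 0.0176) and in Snf5-null tumours (-1.0 ± 0.40, adjusted p = 0.0483) against SS18-SSX tumours, and was -0.96 (adjusted p = 0.0682) and -0.61 (adjusted p = 0.244) without SS18-SSX library N460. The second call was lost without any 1 of 17 libraries, among them all 6 SS18-SSX and all 3 Snf5-null Myf5Cre libraries. Of 8 endothelial markers 2 fell in combined (Tek and Tie1) and 2 in Snf5-null tumours (Flt1 and Cldn5) against SS18-SSX tumours. These counts were near the 21.9% and 25.9% of all tested genes that were lower, and the part of these markers in Epas1 was not tested. The transcript of Hif1a does not report HIF protein, which is controlled largely by degradation.

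Of the 10 hypoxia targets more rose than fell in combined tumours, with a wide spread among these. In combined tumours 5 rose and 0 fell against Snf5-null tumours and 6 rose and 0 fell against SS18-SSX tumours, with median log2 fold changes of 1.03 and 1.59, while DESeq2 called 1 of the 10, P4ha1, lower in the first of these. In Snf5-null against SS18-SSX tumours 3 rose and 1 fell, with a median of 0.33, and DESeq2 also called Ankrd37 higher there. Over all tested genes 29.1%, 23.1% and 22.3% were higher and 20.5%, 21.9% and 25.9% lower in these comparisons. Adm, which encodes the vasodilator adrenomedullin, had a lowest, median and highest value of 4.62, 32.2 and 103 CPM in combined tumours, 1.81, 5.05 and 14.8 in Snf5-null tumours and 2.87, 4.44 and 11.0 in SS18-SSX tumours. All combined libraries but 78777 lay above every other library. In combined tumours Adm rose by 2.85 ± 0.50 against Snf5-null (adjusted p = 0.000166) and by 2.71 ± 0.53 against SS18-SSX tumours (adjusted p = 0.000611), and it was -0.15 (adjusted p = 0.823) in Snf5-null against SS18-SSX tumours.

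Ankrd37, an ankyrin repeat gene known as a direct HIF target, had a lowest, median and highest value of 10.3, 41.9 and 56.4 CPM in combined tumours, 3.16, 8.43 and 13.2 in Snf5-null tumours and 1.18, 2.84 and 8.87 in SS18-SSX tumours. Combined libraries 78777 and TATCre N49 fell within the Snf5-null range, and no combined library within the SS18-SSX range. It rose by 2.27 ± 0.45 (adjusted p = 0.000547) against Snf5-null and by 3.37 ± 0.52 (adjusted p = 9.44e-05) against SS18-SSX tumours, the second being 4.04 without library N428. In Snf5-null against SS18-SSX tumours Ankrd37 was 1.1 ± 0.47 higher, which edgeR did not call (adjusted p = 0.0614) and DESeq2 did (1.13, adjusted p = 0.0314). Bnip3, a mitophagy receptor, had a lowest, median and highest value of 23.4, 103 and 220 CPM in combined tumours, 9.91, 36.5 and 60.7 in Snf5-null tumours and 5.17, 15.0 and 38.2 in SS18-SSX tumours. The same pair of combined libraries, 78777 and TATCre N49, lay within the range of both other genotypes. Bnip3 rose by 1.57 ± 0.43 (adjusted p = 0.00601) in combined against Snf5-null tumours, by 2.73 ± 0.49 (adjusted p = 0.000311) in combined against SS18-SSX tumours and by 1.15 ± 0.46 (adjusted p = 0.0461) in Snf5-null against SS18-SSX tumours, the last of which was lost without any 1 of 11 libraries, at 1.04 to 1.22.

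Egln3, an oxygen-dependent prolyl hydroxylase that marks HIF alpha for degradation, had a lowest, median and highest value of 2.90, 36.5 and 123 CPM in combined tumours, 3.55, 13.1 and 18.0 in Snf5-null tumours and 8.63, 12.5 and 19.0 in SS18-SSX tumours. The 4 Myf5Cre libraries (35.6 to 91.8) and TATCre 78780 (123) lay above every other library, and the other TATCre libraries (2.90, 7.32 and 12.9) did not. It rose by 1.91 ± 0.58 (adjusted p = 0.0117) against Snf5-null and by 1.90 ± 0.63 (adjusted p = 0.02) against SS18-SSX tumours. Without 78780 these were 0.84 (adjusted p = 0.0647) and 0.81 (adjusted p = 0.101), so 1 library decided both calls. Vegfa, the main angiogenic growth factor, had a lowest, median and highest value of 46.1, 136 and 342 CPM in combined tumours, 25.1, 43.2 and 106 in Snf5-null tumours and 87.7, 124 and 149 in SS18-SSX tumours. Snf5-null tumours stood low but overlapped both others, and the 342 was combined TATCre N49. Vegfa rose in combined (1.73 ± 0.34, adjusted p = 0.000469) against Snf5-null tumours and fell in Snf5-null against SS18-SSX tumours (-1.39 ± 0.35, adjusted p = 0.00346), and it was 0.34 (adjusted p = 0.43) in combined against SS18-SSX tumours.

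P4ha1 and Ddit4 were high in both Smarcb1-deficient genotypes. P4ha1, a subunit of the collagen prolyl hydroxylase, had a lowest, median and highest value of 141, 169 and 336 CPM in combined tumours, 203, 238 and 300 in Snf5-null tumours and 53.6, 76.1 and 105 in SS18-SSX tumours. SS18-SSX libraries lay below all others. The log2 fold change was 1.29 ± 0.19 in combined (adjusted p = 7.84e-05) and 1.60 ± 0.20 in Snf5-null against SS18-SSX tumours (adjusted p = 6.33e-06), and -0.31 ± 0.17 (adjusted p = 0.147) in combined against Snf5-null tumours, where DESeq2 called it lower (-0.42, adjusted p = 0.0416). Ddit4, an inhibitor of the growth kinase mTORC1, had a lowest, median and highest value of 78.2, 112 and 225 CPM in combined tumours, 60.0, 102 and 158 in Snf5-null tumours and 13.3, 29.1 and 49.5 in SS18-SSX tumours. It rose by 2.17 ± 0.34 (adjusted p = 0.000111) in combined and by 1.92 ± 0.34 (adjusted p = 0.00018) in Snf5-null against SS18-SSX tumours, again with no overlap. Ndrg1, P4ha2 and Car9 passed in no genotype comparison. Car9, a carbonic anhydrase of the cell surface widely used as a hypoxia marker, was low throughout, at 0.432 to 4.81 CPM in combined tumours, 0.507 to 1.92 in Snf5-null tumours and 0.695 to 2.79 in SS18-SSX tumours.

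Averaged over the 10 hypoxia targets, log2 CPM was 5.21 ± 0.65 in combined tumours, 4.31 ± 0.49 in Snf5-null tumours and 3.80 ± 0.16 in SS18-SSX tumours (SD, n = 8, 8 and 6). Averaged over the 15 enzymes it was 6.63 ± 0.36, 6.10 ± 0.27 and 5.65 ± 0.33 in the same order, and over the 3 lactate and pyruvate genes 8.30 ± 0.51, 7.06 ± 0.45 and 5.63 ± 0.39. The regulators Pfkfb3 and Pfkfb4 averaged 3.97 ± 0.55 in combined tumours, 5.40 ± 0.40 in Snf5-null tumours and 3.79 ± 0.55 in SS18-SSX tumours. The SD of these means was larger for hypoxia targets than for enzymes among combined and Snf5-null tumours, and not among SS18-SSX tumours. The means cover 10 and 15 genes of unlike level, so their SDs do not show which genes varied more. Combined library 78777 was lowest of its genotype in hypoxia targets at 4.04 and 78780 highest at 6.02, with Myf5Cre N1 at 5.99. These means carry no test, because the members were chosen with results known.

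**Figure D5:**
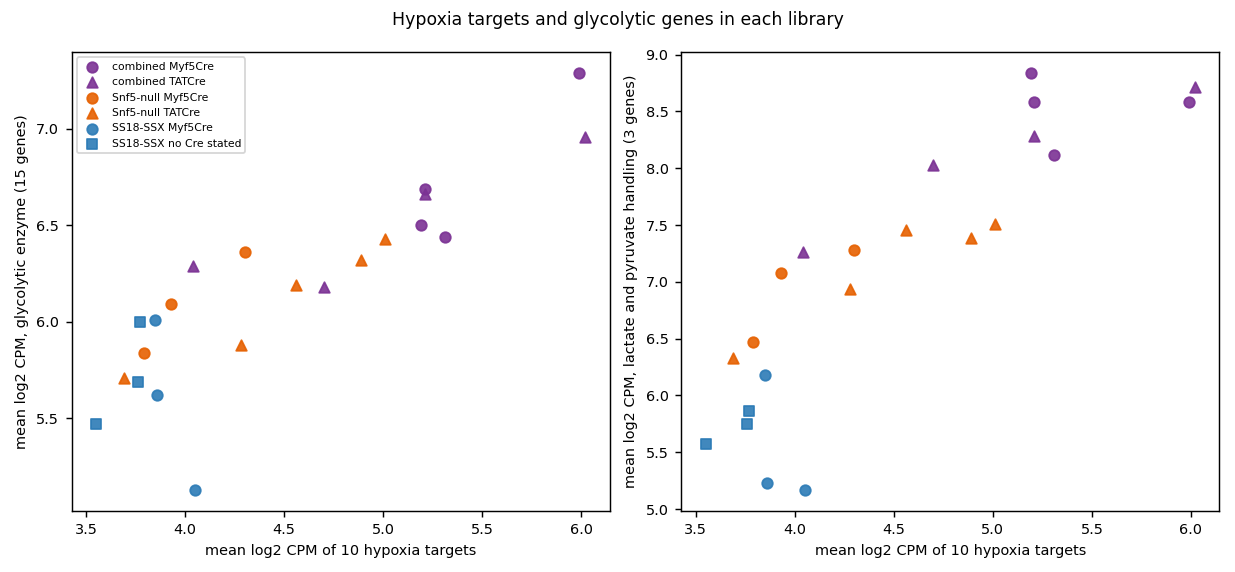
Mean log2 CPM of the 10 hypoxia targets (horizontal axes) against that of the 15 glycolytic enzymes (left) and the 3 lactate and pyruvate genes (right) in each library, coloured by genotype with markers for the Cre label. Combined libraries (purple) spread along the horizontal axis from 4.04 to 6.02, while SS18-SSX libraries (blue) stay between 3.55 and 4.05.

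Few members were called between sources of Cre. In Snf5-null tumours 1 member rose and 0 fell in Myf5Cre against TATCre libraries, where 4.97% of all tested genes were called, 1.78% higher and 3.19% lower. That member was Slc2a3, the high-affinity glucose transporter GLUT3 known from neurons and leukocytes, at 99.5, 196 and 145 CPM in Myf5Cre libraries, against 23.3, 15.2, 8.65, 9.23 and 24.4 in TATCre libraries. The groups did not overlap, and the log2 fold change was 3.19 ± 0.83 (adjusted p = 0.0335). The call was lost with N43L and N43R summed (3.06, adjusted p = 0.0773), with N31 and N33 summed (3.11, adjusted p = 0.114) and with N43L and N43R left out (2.83, adjusted p = 0.191). Slc2a3 made up 51% ± 1.20 of the length-adjusted counts of Slc2a1 and Slc2a3 in Myf5Cre libraries and 9.62% ± 7.59 in TATCre libraries (SD, n = 3 and 5). With DESeq2, P4ha2 also passed, 2.68 log2 units lower in Myf5Cre libraries (log2 fold change -2.68, adjusted p = 0.00626), against -2.66 ± 0.84 (adjusted p = 0.0739) in edgeR.

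In combined tumours edgeR called 0 members between Myf5Cre and TATCre (1.82% of all tested genes were called, 0.571% higher and 1.25% lower), with 3 members at an unadjusted p below 0.05 and 0 called by DESeq2. For the interaction of Cre and genotype edgeR called 0 members (2.42% of all tested genes were called, 1.32% higher and 1.10% lower), with 3 at an unadjusted p below 0.05, and DESeq2 called 1, Pdk1, whose values are given above. Between the SS18-SSX groups, which differ in number series, edgeR called 0 members in Myf5Cre against no Cre stated (2.11% of all tested genes were called, 1.25% higher and 0.866% lower), with 3 at an unadjusted p below 0.05 and 0 called by DESeq2.

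Genes around the members in the same pathways gave a mixed picture, from lists chosen by function with earlier results of these data known. Over all tested genes, 29.1% were higher and 20.5% lower in combined against Snf5-null tumours. These shares were 23.1% and 21.9% in combined against SS18-SSX tumours, and 22.3% and 25.9% in Snf5-null against SS18-SSX tumours. Of 34 other HIF targets, 9 rose and 6 fell in combined against Snf5-null tumours, 14 rose and 4 fell in combined against SS18-SSX tumours, and 15 rose and 5 fell in Snf5-null against SS18-SSX tumours. The counts of the first comparison were near the shares over all tested genes. Among these targets the largest rise in combined against Snf5-null tumours was Ndufa4l2, a mitochondrial protein induced by HIF, at 4.33 ± 0.38 (adjusted p = 1.35e-07). Against SS18-SSX tumours the largest changes in combined tumours were Tfrc, the transferrin receptor, at 3.17 ± 0.44 (adjusted p = 4.6e-05) and Bhlhe41, a transcriptional repressor, at -2.55 ± 0.44 (adjusted p = 0.000219). Of 12 genes of the HIF machinery 6 rose and 0 fell in combined against Snf5-null tumours, 4 rose and 2 fell in combined against SS18-SSX tumours, and 4 rose and 3 fell in Snf5-null against SS18-SSX tumours. In the first the largest rise was Vhl, the ubiquitin ligase subunit that recognises hydroxylated HIF alpha, at 0.86 ± 0.18 (adjusted p = 0.000963). Of 14 further genes of pyruvate and lactate handling 6 rose and 2 fell, 7 rose and 2 fell, and 3 rose and 3 fell in the same 3 comparisons. The largest changes in combined against SS18-SSX tumours were Slc16a1, the transporter MCT1, at 3.20 ± 0.51 (adjusted p = 0.000118) and Pdk2, another pyruvate dehydrogenase kinase, at -1.59 ± 0.29 (adjusted p = 0.000378). Of 27 further glycolytic genes 21 were tested, and 6 rose and 5 fell, 5 rose and 6 fell, and 4 rose and 6 fell in the same order.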

How the data were processed

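Per the labels' protocols, RNA from fresh frozen tumours was extracted with the RNeasy Mini kit and made into TruSeq Stranded mRNA libraries. Tools named in the submitters' processing notes, without roles, are STAR 2.7.5a, RSEM, featureCounts, cutadapt and DESeq2, and the genome build is mm10. The deposited table holds raw read counts, whole numbers that the authors did not normalise, for 48440 Ensembl IDs, of which 48058 were given symbols and positions from GENCODE M21. Counts were tested in edgeR 4.0.16 (R 4.3.3): filterByExpr on 6 groups (minimum count 10, minimum total 15) left 18929 genes with 99.9% of counts, and after TMM scaling a single quasi-likelihood model took in all 22 libraries. A genotype was the mean of its 2 groups, equally weighted. CPM use TMM-scaled library sizes. Isoenzyme log2 ratios of counts plus 0.5 were compared by two-sided exact permutation over libraries (scipy 1.17.1), adjusted over 27 tests. A copy of a member is another gene with at least 10% of its own 50-base stretches in GENCODE M21 transcripts of the member; this limit, the 5% split of members and the muscle limit were chosen after seeing the data. Members and lists were chosen with earlier results of these data known. All 34 members are reported; of other lists, the largest called rise and fall, 1 of which is not reported here. No libraries of a group agreed within counting noise: chi-square per gene was at least 39.5 between any pair. The tests were checked on simulated data. Alternatives were RLE scaling, DESeq2 1.42.0, no filter, genotype alone, single Cre labels, summed pairs, copies added, a minimum of 1 log2 unit and leaving out each library.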

Additional observations from a re-analysis of the deposited data

Results flagged for a closer look

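In groups of 4 or 5 libraries, the highest or lowest library was compared with the rest by the gap to its neighbour over the whole range of log2 CPM (Dixon's 95% limit), for 102 groups of values of the members, and 5 stood apart; chance alone sets about 1 in 20 apart. Eno1 was highest in combined TATCre 78780 at 274 CPM, against 104 to 120 in the others. Tpi1 was lowest in combined TATCre 78774 at 356 CPM, against 485 to 516. Hif1a was lowest in combined TATCre N49 at 154 CPM, against 285 to 299, in the library with the highest Epas1, Adm and Vegfa of its group. Slc16a3 was lowest in combined Myf5Cre N2 at 87.5 CPM, against 158 to 177. Pfkp was lowest in Snf5-null TATCre N1 at 40.3 CPM, against 75.2 to 91.7.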

How the results depend on the processing

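No paired analysis was possible because the tags in the titles do not tie libraries of different groups to each other. With all libraries 49.6%, 45.0% and 48.2% of all tested genes were called in the 3 genotype comparisons. Such shares are also given above without the libraries high in muscle markers and, in combined against Snf5-null tumours, for single Cre labels. The counts from other settings have no such share beside them, so they show only how the calls moved. Leaving out 1 library at a time gave 11 to 16 members higher and 2 to 5 lower in combined against Snf5-null tumours, 17 to 19 and 1 to 3 in combined against SS18-SSX tumours, and 13 to 16 and 1 to 5 in Snf5-null against SS18-SSX tumours. It gave 0 to 1 higher and 0 to 1 lower for Cre in Snf5-null tumours and for the interaction, 0 to 1 higher and 0 to 0 lower for Cre in combined tumours and between the SS18-SSX groups, and 9 to 15 isoenzyme ratios past the threshold, of 12 with all libraries. With TATCre libraries alone 2 members were higher in combined tumours than in Snf5-null tumours. Myf5Cre libraries alone left 1 lower in combined against Snf5-null, 1 against SS18-SSX, and 2 in Snf5-null against SS18-SSX tumours. Of the members lower in combined against SS18-SSX tumours, 1 was left with a minimum of 1 log2 unit and with genotype alone, and of those lower in Snf5-null against SS18-SSX tumours 2 with that minimum and with N31 and N33 summed. Without the libraries high in muscle markers, an alternative added after seeing the data, 9 were higher and 1 lower in combined against Snf5-null, 0 lower in combined against SS18-SSX, 2 lower in Snf5-null against SS18-SSX tumours, 0 higher for Cre in Snf5-null tumours, and 0 isoenzyme ratios passed. The ratios also gave 0 with either Cre label alone. Smaller groups limit the smallest p that an exact permutation can give, and with Myf5Cre libraries alone no p below 0.05 was possible. These settings therefore do not show whether the ratios hold. For Cre in Snf5-null tumours DESeq2 gave 1 lower, and summing N43L and N43R, summing N31 and N33 or leaving N43L and N43R out (added after seeing the data) gave 0 higher. DESeq2 gave 1 higher for the interaction. The cause was not tested. Hif1a in combined against SS18-SSX tumours was -0.01 with Myf5Cre libraries alone. Mean log2 CPM over the glycolytic enzymes was 6.56 in combined and 6.16 in Snf5-null tumours with RLE scaling, against 6.63 and 6.10 with TMM. DESeq2 gave a lower value than edgeR for every member called between these genotypes, as for Pfkl (1.24 against 1.35) and Hk2 (-1.31 against -1.20). Differences between combined and Snf5-null tumours thus moved with the scaling and tool. RLE scaling kept 14 higher and 2 lower, 17 and 2, and 14 and 3 in the genotype comparisons. Every alternative run, the minimum of 1 log2 unit included, kept the call of 3 of 17, 15 of 20 and 14 of 18 members in these. Depth limits Car9 and Pgam1 most among the members, with as few as 7 and 12 counts in a library.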

Other observations

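Genes of the tricarboxylic acid cycle, which oxidises pyruvate in mitochondria, also rose more often than they fell in combined tumours. Over all tested genes, 29.1% were higher and 20.5% lower in combined against Snf5-null tumours. These shares were 23.1% and 21.9% in combined against SS18-SSX tumours, and 22.3% and 25.9% in Snf5-null against SS18-SSX tumours. Of 17 nuclear genes of the cycle, 7 rose and 0 fell in combined against Snf5-null tumours, 13 rose and 0 fell in combined against SS18-SSX tumours, and 5 rose and 1 fell in Snf5-null against SS18-SSX tumours. The largest rise in every comparison was Sdhd, a membrane anchor of succinate dehydrogenase, at 0.90 ± 0.27 (adjusted p = 0.0119), 2.26 ± 0.31 (adjusted p = 4.41e-05) and 1.37 ± 0.30 (adjusted p = 0.0012), and the gene that fell was Suclg2, a subunit of succinyl-CoA ligase, at -0.81 ± 0.29 (adjusted p = 0.0249).

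Of 7 genes of the pentose phosphate pathway, which draws on the same glucose 6-phosphate, 2 rose and 1 fell in combined against Snf5-null tumours, 4 rose and 1 fell in combined against SS18-SSX tumours, and 2 rose and 1 fell in Snf5-null against SS18-SSX tumours. In the first comparison these counts were near the shares over all tested genes, 29.1% higher and 20.5% lower. Pgd, which makes NADPH, fell by 2.44 on the log2 scale in combined against Snf5-null tumours (SE 0.17, adjusted p = 1.61e-08) and was 2.27 ± 0.19 higher in Snf5-null than in SS18-SSX tumours (adjusted p = 2.25e-07). Of 15 cell cycle genes 9 rose and 0 fell in combined against Snf5-null tumours and 11 rose and 0 fell in combined against SS18-SSX tumours. In these comparisons 29.1% and 23.1% of all tested genes were higher and 20.5% and 21.9% lower. All 5 red blood cell markers rose in combined against Snf5-null tumours, the largest being Hbb-bt, a beta globin, at 3.90 ± 0.85 (adjusted p = 0.00119). Against SS18-SSX tumours 2 of the 5 rose in combined tumours, Hbb-bs at 2.96 ± 0.86 (adjusted p = 0.00947) and Hbb-bt at 2.91 ± 0.86 (adjusted p = 0.0106), and the part of blood content in the members' values was not tested.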
